A study of Mus musculus with 31 samples.

Results

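The 12 libraries described here hold RNA of leukocytes from tumours that received no radiation. They were chosen by their labels, as every mock-treated library among the 31 of the series. The series asked how the way a radiation dose is divided changes the immune cells of mouse mammary tumours. Its donors were wild-type female C57BL/6 mice bearing AT3-OVA tumours, grown in the mammary fat pad from a triple negative mouse mammary cancer line that carries ovalbumin. CD45.2+ cells, a gate that takes leukocytes of every kind, were sorted from dissociated tumours, and only RNA with an integrity number above 8.5 went into libraries. The mice were anaesthetised with ketamine and xylazine like their irradiated counterparts. The 3x0Gy mice had 3 mock sessions at 24 hour intervals and their tumours were taken at day 5 (4 libraries). The 1x0Gy mice had a single mock session, with tumours taken at day 5 (4 libraries) or day 13 (4 libraries). Sample codes in the labels differ between the days, so day and experiment cannot be told apart, and no level at day 13 is set against one at day 5 as a result. The only comparison between groups is 3x0Gy against 1x0Gy at day 5. The labels number the libraries within a group but do not say how many mice stand behind each, so the spread between libraries may hold both biological and technical parts.

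A growing tumour draws in blood monocytes, which become macrophages, and it holds smaller numbers of dendritic cells, T cells, natural killer (NK) cells, granulocytes and plasma cells. Each type is read from a few genes that it transcribes and most others do not: Csf1r and the complement gene C1qa for macrophages, the CD3 chains for T cells, the chemokine receptor Xcr1 for type 1 conventional dendritic cells, and the calcium-binding S100a8 and S100a9 for neutrophils and monocytes. In a bulk sample, fewer cells of a type and less RNA per cell cannot be told apart. Levels are given as CPM, counts relative to a library's total of gene counts, scaled between libraries. Levels of different genes are set against each other only per kilobase (kb) of exon.

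Macrophage and antigen presentation genes stood among the most abundant transcripts. Of the 12 genes with the highest mean level per kb, 4 are part of protein breakdown and antigen display or of complement: Ctss, a protease of the class II pathway, had 6246 CPM per kb, B2m, the light chain of class I molecules, 4978, C1qa 4955, and the class II chain H2-Eb1 4335. The lysosomal protein gene Psap had 3506 CPM per kb. Tmsb4x, which encodes the actin-binding thymosin beta 4, had 8174, and Actb 4848. Above all of these stood the mitochondrial ribosomal RNA mt-Rnr2, with 12171 CPM per kb. The clone-named symbol RP23-81C12.3, whose product is unknown here, took the largest mean share of gene counts of any symbol, 5.28%.

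The level of Ptprc, which encodes the CD45 used for the sort, was 664, 391, 862 and 667 CPM in 3x0Gy libraries 1 to 4, and 1091, 942, 652 and 752 CPM in the 1x0Gy libraries of day 5. At day 13 the 1x0Gy libraries had 862, 1061, 494 and 709 CPM. The sort marker was thus present in every library, with 3x0Gy library 2 the lowest and the first 1x0Gy library the highest at day 5. Csf1r, the receptor for macrophage growth factor, had 568, 1261, 485 and 572 CPM in 3x0Gy, 624, 555, 906 and 754 CPM in 1x0Gy at day 5, and 260, 321, 487 and 322 CPM at day 13. Here 3x0Gy library 2 was the highest at day 5, and the 2 day 5 groups overlapped. C1qa ran from 2110 to 11724 CPM with a median of 4565.

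Per kb, the macrophage genes C1qa (4955 CPM per kb) and Apoe (1741) lay far above Csf1r itself (103), Cd8a (33.5), S100a9 (31.3), Ccr2 (13.2), Xcr1 (11.3), Cd3e (7.31), the plasmacytoid dendritic cell receptor Siglech (3.99) and the NK receptor gene Ncr1 (3.23). Xcr1 ran from 17.1 to 84.1 CPM with a within-group standard deviation (SD) of 0.39 log2 units, and Cd3e ran from 6.80 to 53.0 CPM with an SD of 0.97. Ccr2, the receptor by which monocytes leave the bone marrow, lay between 76.6 and 123 CPM in 10 of the libraries and at 46.5 and 30.6 CPM in 3x0Gy libraries 1 and 2. These 2 libraries also had the fewest gene counts of the 12, 2652298 and 3000419.

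Markers of B cells were close to the limit of detection. The B cell receptor component Cd79a ran from 0 to 1.27 CPM, and 3 of the 4 day 13 libraries had no count, where 3 counts would be at most 0.955 CPM before scaling. Of 9 B cell genes, 1 reached a mean of 5 CPM, and the 9 together summed to 18.4 to 34.6 CPM per library. The joining chain gene of secreted antibody, here under its older symbol Igj, ran from 12.7 to 161 CPM. Ly6g, the surface marker used to sort neutrophils, had no count in any library, where 3 counts would be at most 1.13 CPM in the shallowest library. The neutrophil chemokine receptor gene Cxcr2 stayed between 0 and 1.28 CPM. Other genes of the neutrophil list were present: 7 of 13 reached a mean of 5 CPM, and the list summed to 545 to 1338 CPM per library. S100a9 had at most 39.1 CPM and S100a8 at most 53.5 CPM in any library, so most of that sum came from other members. The sum is therefore not read as a level of neutrophils. The limits given as 3 counts cover counting error only.

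Genes of cells that the CD45.2 gate should leave out were counted too. Of 15 epithelial and tumour genes, 12 reached a mean of 5 CPM, and their sum ran from 502 to 1352 CPM. The epithelial adhesion gene Epcam had 64.0 to 142 CPM, and the collagen gene Col1a1 7.00 to 46.6 CPM. Of 13 fibroblast and matrix genes, 7 reached a mean of 5 CPM, with sums of 118 to 666 CPM. At day 5 the highest epithelial and matrix sums were both in 3x0Gy library 1. Whether these transcripts came from unsorted cells or from free RNA was not tested.

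**Figure D1:**
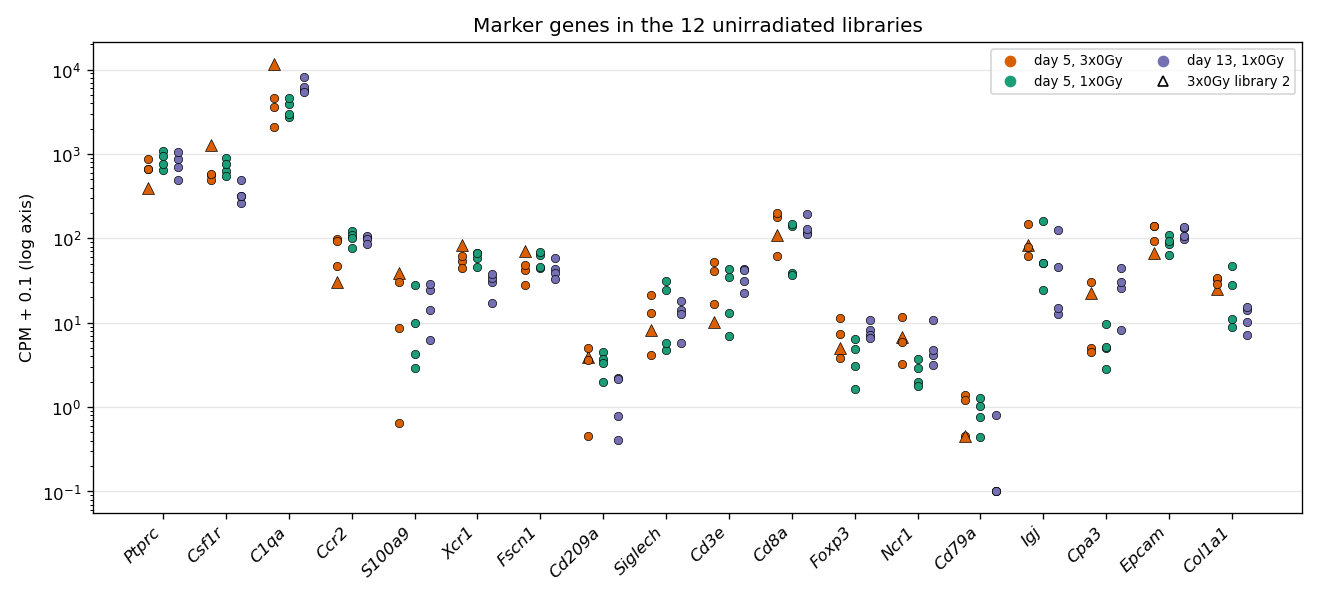
Level of 18 marker genes in each of the 12 libraries, as CPM plus 0.1 on a log axis. Each point is a library, coloured by group, and the triangle is 3x0Gy library 2. C1qa stays at or above 2110 CPM in every library, and Cd79a stays at or below 1.27 CPM.

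Of the 12 libraries, 3x0Gy library 2 stood apart. Only 5.65% of its uniquely placed reads lay outside annotated genes, where the other 11 libraries had 15.9% to 23.1%. RP23-81C12.3 took 0.148% of its gene counts against 1.99% to 15.0% elsewhere. Malat1, a long RNA that stays in the nucleus, had 101 CPM in this library and 2686 to 11184 CPM in the others. mt-Rnr2 had 573 CPM there and 10484 to 30999 CPM elsewhere. Of genes with at least 5 CPM in each of the other 11 libraries, 46 lay in this library below 10% of the lowest other value. By the same rule no gene did so in any other library. Among them were the transcription cofactor gene Vgll4, at 0 against 15.5 to 78.6 CPM, and Il12b, the p40 chain shared by the cytokines IL-12 and IL-23, at 1.76 against 48.9 to 130 CPM. Above all others in the same library were H2-Eb1, at 24028 CPM where the other day 5 libraries had 7415 to 11967, and the cytokine gene Il1b, at 8903 CPM where all others had 1702 to 3282. Xist, transcribed from the inactive X chromosome, had 107 CPM there and 434 to 846 CPM elsewhere. This library held 30.4% of the variance within groups, the largest share of the 12. Several results below are also given without it. What sets it apart was not tested.

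**Figure D2:**
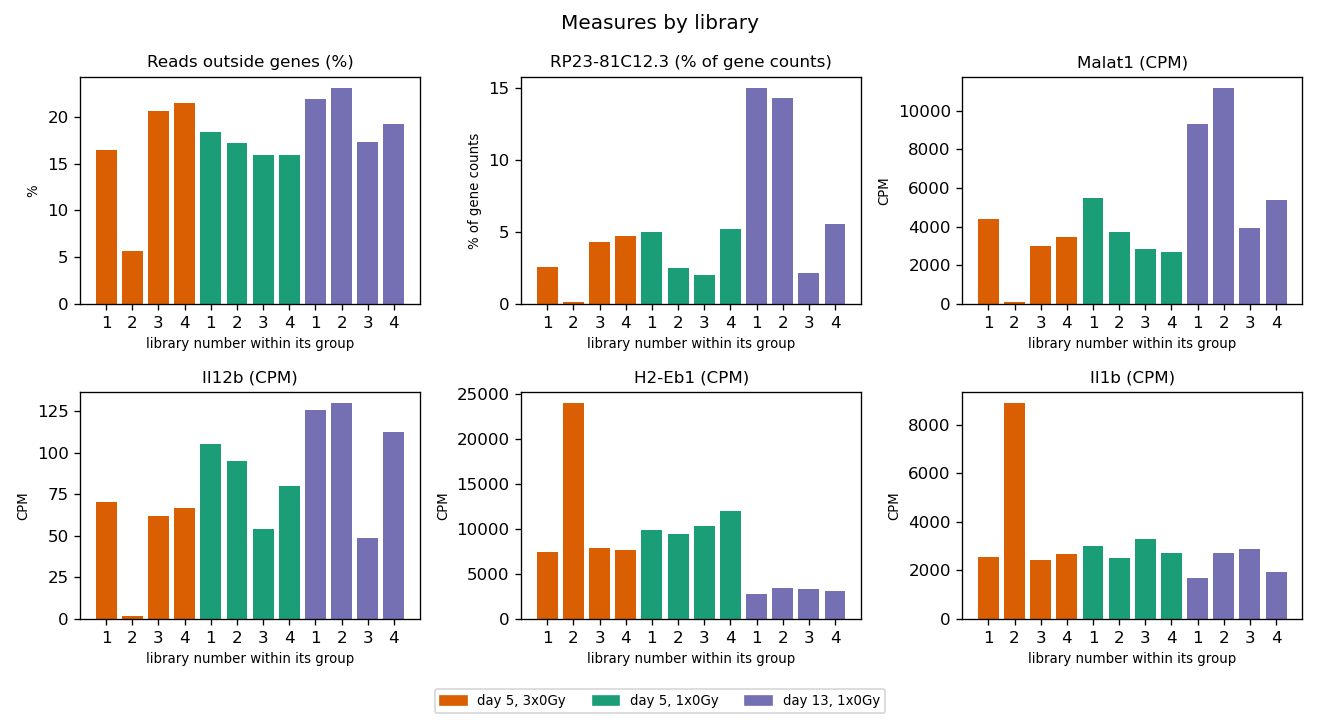
Bars give 6 measures in each library, numbered within its group and starting at 0: reads outside genes and the clone-named gene as percentages, and Malat1, Il12b, H2-Eb1 and Il1b as CPM. In 3x0Gy library 2 the first 4 measures are the lowest of the 12 and the last 2 the highest.

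Libraries of the same group differed by a median SD of 0.29 log2 units per gene, over the 9788 genes whose mean level was 5 CPM or more. Counting error alone gave a median SD of 0.13. Without 3x0Gy library 2 the median SD was 0.24, the number of genes with an SD above 1 was 30 (0.306%) in place of 122 (1.25%), and 36 of the 100 most variable genes stayed among the 100. Of the 100 most variable genes over 12 libraries, 78 were lowest in that library. By group, the median SD was 0.33 in 3x0Gy (0.21 over 3 libraries), 0.20 in 1x0Gy at day 5 and 0.23 in 1x0Gy at day 13. The day 13 libraries also differed in library measures. RP23-81C12.3 took 15.0% and 14.3% of gene counts in libraries 1 and 2, and 2.15% and 5.54% in libraries 3 and 4. Reads not aligned were 15.3% and 14.1% against 6.77% and 9.96%. The part of this split in the spread and covariation at day 13 was not tested. The plot of the SD with and without 3x0Gy library 2 shows which genes depend on it.

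**Figure D3:**
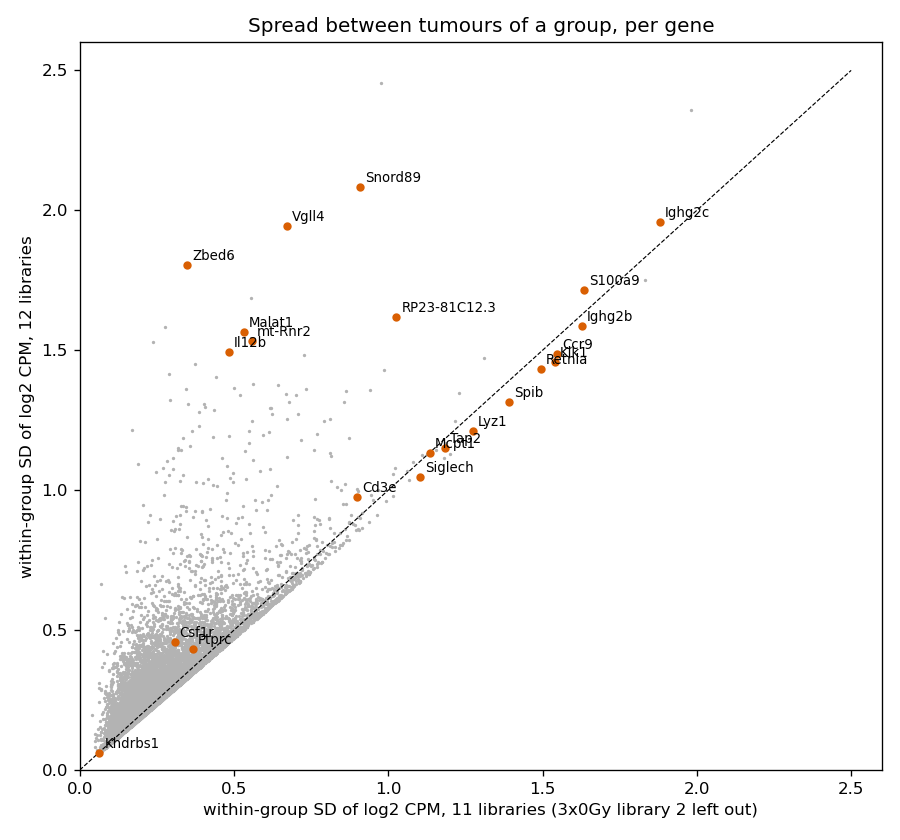
Each point is a gene: the within-group SD of log2 CPM over 11 libraries (x axis, 3x0Gy library 2 left out) and over 12 libraries (y axis). Genes on the dashed line of equality, such as Ighg2c and Ccr9, vary without that library, and genes far above it, such as Vgll4 and Zbed6, vary through it.

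Of the 20 most variable genes over all 12 libraries, 7 were also among the 20 over 11 libraries: Ighg2c, S100a9, Ighg2b, Ccr9, Igkc, Klk1 and Retnla. Among the other 13 was Zbed6, a transcription factor gene that is read from within an intron of another gene, whose SD was 1.80 with that library and 0.35 without it. The 20 most variable genes over 11 libraries included genes of several leukocyte types: antibody genes (Ighg2c, Ighg2b, Igkc, Igj, Mzb1), S100a8 and S100a9, plasmacytoid dendritic cell genes (Siglech, Ccr9, Spib, Klk1), the mast cell protease Mcpt1, perforin (Prf1), and Retnla, Lyz1 and Ear2. The other 4 were Tap2, Pmp22, Pip and the small nucleolar RNA Snord87. These genes were chosen by their spread, so the spread is a description and no test. Khdrbs1, an RNA-binding protein gene, varied least among genes of at least 50 CPM: its level was 187 to 214 CPM in the day 5 libraries, and its SD 0.060. Il10ra, the receptor chain for IL-10, was next with an SD of 0.066.

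Genes of some leukocyte types varied together from library to library. Among all pairs of the 9788 genes described above, 5.58% had a Pearson r above 0.7 between their within-group deviations, and the median r was 0.00. Among pairs of the 18 T cell genes that reached that mean, 85.0% had an r above 0.7, with a median r of 0.85 (0.90 without 3x0Gy library 2). The share was 57.6% for 12 cytotoxic lymphocyte genes, 53.6% for 8 regulatory T cell genes, 52.4% for 7 fibroblast and matrix genes, 47.2% for 9 NK genes and 46.7% for 6 mast cell, basophil and eosinophil genes. It was 26.8% for 18 macrophage genes, 11.6% for 24 cell cycle genes, 10.5% for 20 type I interferon response genes and 5.56% for 9 genes of type 1 conventional dendritic cells. The share over all pairs was 4.59% without 3x0Gy library 2, and it was then 91.5% for T cell, 80.3% for cytotoxic, 64.3% for regulatory T cell and 63.9% for NK genes, 52.4% for fibroblast and 46.7% for mast cell genes. It was 21.6% for macrophage, 9.78% for cell cycle, 14.2% for interferon and 8.33% for type 1 dendritic cell genes. These shares are descriptions over the same libraries, and genes are not independent replicates.

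The T cell genes were low in a few libraries. Cd3e, a chain of the T cell receptor complex, had 41.2, 10.2, 53.0 and 16.5 CPM in 3x0Gy, 43.3, 34.3, 6.80 and 12.9 CPM in 1x0Gy at day 5, and 43.4, 31.2, 22.7 and 42.3 CPM in 1x0Gy at day 13. In each day 5 group, 2 libraries had less than 17 CPM of Cd3e and the others more than 34. The T cell list as a whole was less low in 3x0Gy library 2. Its sums were 1089, 645, 1305 and 483 CPM in 3x0Gy, and 867, 953, 305 and 353 CPM in 1x0Gy at day 5. Cd8a, the marker of cytotoxic T cells, followed with 36.9 and 39.1 CPM in the lowest libraries (1x0Gy libraries 4 and 3 of day 5) and 200 CPM in the highest. The 19 T cell genes summed to 305 to 1324 CPM per library. Trac, the constant region of the receptor's alpha chain, had at most 0.678 CPM in any library. Reads on most T cell receptor and antibody variable segments were too few to describe their use: the alpha variable segments had 24 counts in all 12 libraries together. The only gamma variable segment listed had 289, with 0 to 49 per library, and 1 segment cannot describe use. How completely these loci were counted was not tested, so Trac is not read as the level of the alpha chain. Genes most like Cd3e in their deviations were Rabgap1l (r 0.98), the thymocyte signalling gene Themis (0.97), Jakmip1 (0.97), Rpgrip1 (0.96), the T lineage transcription factor Bcl11b (0.96) and the integrin Itga1 (0.96), over 12 libraries.

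A small set of plasmacytoid dendritic cell genes moved with the T cell genes. Plasmacytoid dendritic cells are known as the main makers of type I interferon in response to nucleic acids. Siglech, their lectin receptor, had 13.0, 8.10, 20.9 and 4.01 CPM in 3x0Gy, 31.0, 24.3, 4.59 and 5.62 CPM in 1x0Gy at day 5, and 13.9, 18.2, 5.61 and 12.7 CPM at day 13. The gut-homing chemokine receptor Ccr9 had 18.3, 4.93, 29.9 and 1.77 CPM in 3x0Gy, 29.6, 27.2, 2.21 and 5.80 CPM in 1x0Gy at day 5, and 23.4, 28.8, 7.49 and 23.9 CPM at day 13. Both genes were low in 3x0Gy library 4 and in 1x0Gy libraries 3 and 4 of day 5, and their r was 0.97. Ccr9 was low in 3x0Gy library 2 too, and in day 13 library 3 both genes were the lowest of that group. Together with the transcription factor Spib and the protease Klk1 they gave r between 0.82 and 0.97, and the median r with 9 T and cytotoxic genes was 0.86. Of the longer list of 9 plasmacytoid genes, 19.4% of pairs had an r above 0.7, so the whole list did not vary as a unit. Its median r was 0.03 (-0.11 without 3x0Gy library 2), and its sum was 775 to 982 CPM per library. The sum was 849 CPM in 3x0Gy library 4, and 869 and 923 CPM in 1x0Gy libraries 3 and 4 of day 5. The 4 genes were chosen because they varied together, and the 9 T and cytotoxic genes were chosen by their values too. The values support nothing beyond that.

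The promoters of these 4 genes are shown because the genes moved together. The windows run from 250 bases before to 50 after the gene start (RefSeq, GRCm38.p6), and 4 of 4 genes were found. The motif searched was the E-box CACCTG, read on the other strand as CAGGTG, a site known to be bound by E proteins, marked in capitals. Siglech lies at chr7:55767934-55768233 on the + strand, Ccr9 at chr9:123766961-123767260 on +, Klk1 at chr7:44225110-44225409 on + and Spib at chr7:44532022-44532321 on the - strand.
Siglech: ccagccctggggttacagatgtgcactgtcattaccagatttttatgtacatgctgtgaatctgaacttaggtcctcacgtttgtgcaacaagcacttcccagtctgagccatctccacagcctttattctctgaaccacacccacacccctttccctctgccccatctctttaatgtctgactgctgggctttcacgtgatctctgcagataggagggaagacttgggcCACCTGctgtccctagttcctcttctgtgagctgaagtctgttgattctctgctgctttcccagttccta
Ccr9: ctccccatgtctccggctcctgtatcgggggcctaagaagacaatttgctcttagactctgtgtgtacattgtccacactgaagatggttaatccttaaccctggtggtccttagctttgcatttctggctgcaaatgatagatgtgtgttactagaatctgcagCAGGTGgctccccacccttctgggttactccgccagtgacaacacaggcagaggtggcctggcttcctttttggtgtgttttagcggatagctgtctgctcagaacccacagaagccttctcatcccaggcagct
Klk1: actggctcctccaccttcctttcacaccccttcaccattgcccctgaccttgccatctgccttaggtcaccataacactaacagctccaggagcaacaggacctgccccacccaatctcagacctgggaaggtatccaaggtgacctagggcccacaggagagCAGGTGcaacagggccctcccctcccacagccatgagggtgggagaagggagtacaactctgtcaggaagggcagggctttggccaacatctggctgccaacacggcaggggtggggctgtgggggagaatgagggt
Spib: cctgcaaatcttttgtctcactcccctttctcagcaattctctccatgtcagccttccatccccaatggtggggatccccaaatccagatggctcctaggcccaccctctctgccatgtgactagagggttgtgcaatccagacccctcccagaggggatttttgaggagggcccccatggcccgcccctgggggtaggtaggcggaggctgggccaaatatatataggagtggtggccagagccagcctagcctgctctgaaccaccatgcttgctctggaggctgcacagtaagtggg
Siglech, Ccr9 and Klk1 hold 1 copy each and Spib none. The motif occurs in 20.2% of all 32851 promoter windows of this length. A match describes these letters only.

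Retnla, a secreted protein known as a marker of alternatively activated macrophages, varied against the T cell genes. It had 37.3, 229, 247 and 207 CPM in 3x0Gy, 33.9, 192, 697 and 378 CPM in 1x0Gy at day 5, and 25.8, 59.1, 108 and 27.5 CPM at day 13. The first library of each day 5 group was low, and 1x0Gy library 3 of day 5 was the highest. Lyz1, a lysozyme gene, moved almost in step with Retnla (r 0.99), between 4.67 and 85.2 CPM. With the eosinophil-type ribonuclease Ear2, the chemokine Ccl24 and Pmp22, the 5 genes gave r from 0.60 to 0.99. The median r between these 5 and the 9 T and cytotoxic genes was -0.65 (-0.64 without 3x0Gy library 2).

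Among the plasma cell genes, 5 varied together and the whole list less so: 35.6% of its pairs had an r above 0.7, with a median r of 0.26. The 5 were chosen by these values. Ighg2c, the constant region of an IgG heavy chain, had 445, 19.7, 84.5 and 87.3 CPM in 3x0Gy, 20.8, 32.2, 8.67 and 49.4 CPM in 1x0Gy at day 5, and 241, 3.94, 6.55 and 46.9 CPM at day 13. Library 1 was far above the other 3 in 3x0Gy and in 1x0Gy at day 13. Igkc, the kappa light chain, followed with an r of 0.97. The 5 genes Ighg2c, Ighg2b, Igkc, Igj and Mzb1, the last a chaperone of antibody secretion, gave r from 0.77 to 0.97.

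The mast cell proteases varied together. Mast cells store such proteases in granules. Cpa3, a carboxypeptidase, had 4.93, 22.2, 4.37 and 30.0 CPM in 3x0Gy, 4.94, 9.67, 2.72 and 5.06 CPM in 1x0Gy at day 5, and 8.13, 25.5, 30.2 and 44.1 CPM at day 13. Libraries 2 and 4 of 3x0Gy were above every 1x0Gy library of day 5, and libraries 1 and 3 were not. Cpa3, Mcpt1, Tpsb2, Cma1 and Mcpt2 gave r from 0.82 to 0.96, and were chosen by their values. They were not apart from all other sets. Their median r was 0.49 with S100a8 and S100a9, and 0.47 with a set around Tap2 described below. Without 3x0Gy library 2 these were 0.40 and 0.41.

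S100a9 had 8.45, 39.1, 0.546 and 30.2 CPM in 3x0Gy, 2.80, 4.17, 27.7 and 9.74 CPM in 1x0Gy at day 5, and 13.9, 6.06, 24.1 and 29.0 CPM at day 13. In 3x0Gy libraries 2 and 4 and 1x0Gy library 3 of day 5 it was high and Cd3e low. In day 13 library 4 both were high, and in 1x0Gy library 4 of day 5 Cd3e was low with S100a9 at 9.74 CPM. S100a8 followed it with an r of 0.96, and the median r of both with the 9 T and cytotoxic genes was -0.72.

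**Figure D4:**
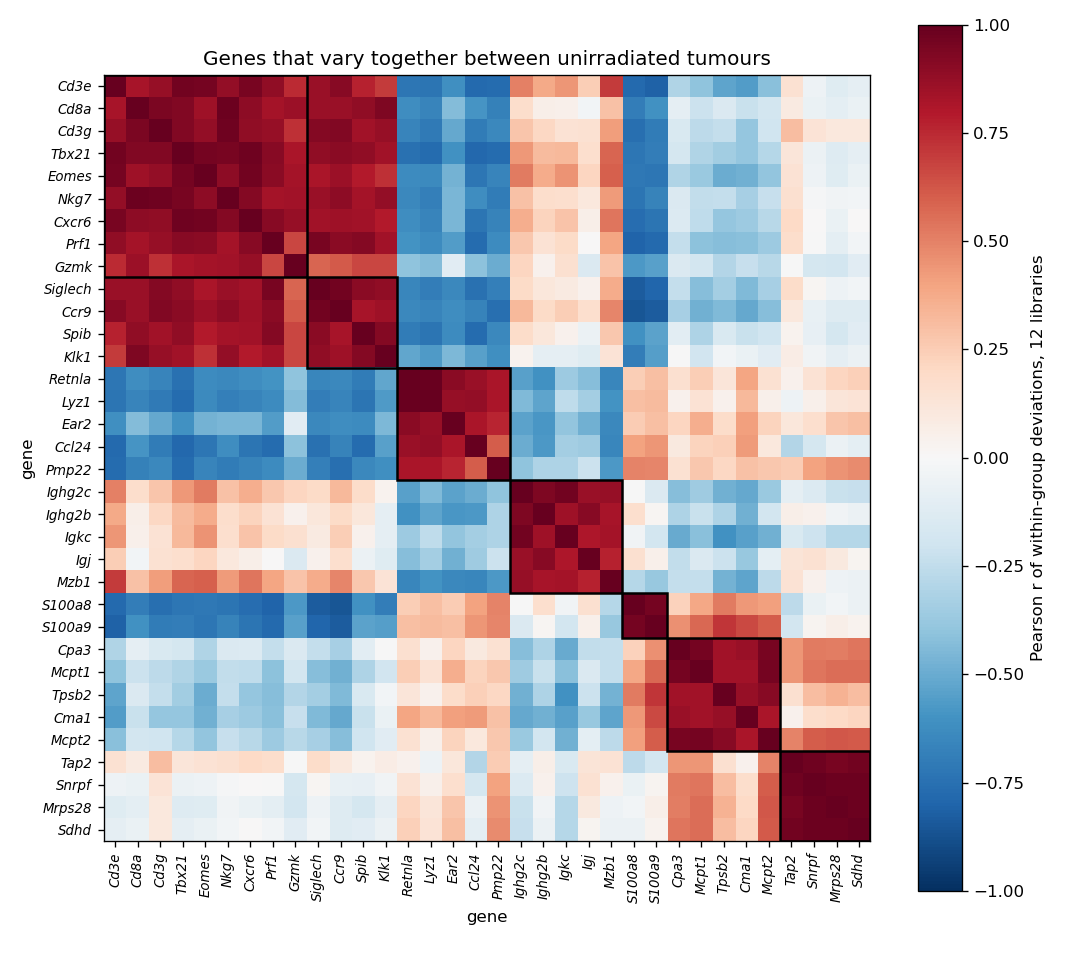
Pearson r between within-group deviations of log2 CPM for 34 genes over 12 libraries, from blue (-1) to red (1). Black boxes mark 7 sets chosen by their values: T and cytotoxic, plasmacytoid, Retnla with Lyz1, antibody, S100a8 with S100a9, mast cell, and Tap2 with Snrpf. The first 2 sets are red with each other and blue with Retnla and S100a9.

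Relations among a panel of 18 marker genes were tested by an exact permutation of libraries within groups (13824 arrangements, two-sided). Of 153 pairs, 0 passed an adjusted p of 0.05 and 26 had an unadjusted p below it. The pair with the smallest p was Cd3e with Csf1r: Pearson r was -0.80 (exact permutation p = 0.00072, adjusted 0.111) and Spearman rho was -0.74 (p = 0.0053, adjusted 0.101). Without the 2 libraries farthest from the median of Cd3e its r was -0.65, and without 3x0Gy library 2 it was -0.75. The T cell marker was thus low where the macrophage marker was high, short of the threshold.

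Ptprc with Csf1r had a Pearson r of -0.89 (exact permutation p = 0.0030, adjusted 0.129) and a rho of -0.78 (p = 0.010, adjusted 0.171), and r was -0.84 without the 2 farthest libraries and -0.83 without 3x0Gy library 2. Ptprc moved with a technical measure as well: its r with the share of reads outside genes was 0.82 (exact permutation p = 0.00072, adjusted 0.039 over 54 relations, rho 0.85, p = 0.0015, r without the 2 farthest libraries 0.71). Without 3x0Gy library 2 that r was 0.79 and its adjusted exact permutation p 0.453. Csf1r had an r of -0.87 with the same measure (exact permutation p = 0.0073, adjusted 0.0986, rho -0.74, p = 0.023, r without the 2 farthest libraries -0.65). Without 3x0Gy library 2, the extreme of both measures, it was -0.62 (exact permutation p = 0.052, adjusted 0.531). Ccr2 had an r of 0.88 with the share of reads outside genes (exact permutation p = 0.0042, adjusted 0.0872, rho 0.84, p = 0.00043, r without the 2 farthest libraries 0.77). That r was 0.73 without 3x0Gy library 2 (exact permutation p = 0.017, adjusted 0.453). For Cd3e the r was 0.52 (exact permutation p = 0.110, adjusted 0.523, rho 0.43, p = 0.182, r without the 2 farthest libraries 0.27), and 0.21 without 3x0Gy library 2 (exact permutation p = 0.498, adjusted 0.934). The part of this measure in the relations between markers was not tested.

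Siglech with S100a9 gave r -0.79 (exact permutation p = 0.0051, adjusted 0.129) and rho -0.87 (p = 0.0020, adjusted 0.0858), with r -0.68 without the 2 farthest libraries. Cd3e with Foxp3, the regulatory T cell factor, gave r 0.88 (exact permutation p = 0.0079, adjusted 0.129) and rho 0.91 (p = 0.0049, adjusted 0.101), with r 0.85 without the 2 farthest. Cd3e with Siglech gave r 0.86 (exact permutation p = 0.010, adjusted 0.129) and rho 0.91 (p = 0.0039, adjusted 0.0996), with r 0.94 without the 2 farthest. These r were -0.84, 0.91 and 0.94 without 3x0Gy library 2. Each of these kept its sign in the 8 day 5 libraries taken alone, where r was -0.81, 0.88 and 0.89. Ptprc with Cd3e gave r 0.76 (exact permutation p = 0.0040, adjusted 0.129, rho 0.71), with r 0.58 without the 2 farthest and 0.67 without 3x0Gy library 2. Ncr1 with Cd209a gave r 0.81 (exact permutation p = 0.0045, adjusted 0.129, rho 0.83), with r 0.84 and 0.82 in the same order. The pairs printed are a part of the 26 with an unadjusted p below 0.05.

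Other genes were named by likeness to a marker over the 12 libraries, as a description. Sos2, a guanine nucleotide exchange factor, was most like Ptprc (r 0.99), and the membrane chemokine Cxcl16 most like Csf1r (0.98). Epsti1 was most like Xcr1 (0.96), Mob1b most like Ccr2 (0.95) and Gng12 most like S100a9 (0.96). The 6 genes most like Ncr1 included Mcm6 (0.89) and Mcm2 (0.88), subunits of the helicase that opens DNA for replication, and Ncr1 itself had only 1.69 to 11.7 CPM.

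The comparison of 3x0Gy with 1x0Gy at day 5 sets the 2 mock schedules against each other. Anything else that differed between the groups enters it too and cannot be told apart from the schedule. No gene passed: 0 of 11569 tested genes had an adjusted p below 0.05 by edgeR (0.0%), and the smallest adjusted p was 0.328. At an unadjusted p below 0.05 there were 915 genes (7.91%), where 578 would come from an even spread of p-values, with 589 higher in 3x0Gy (5.09%) and 326 lower (2.82%). That split depended on the scaling: it was 672 higher and 177 lower by library size alone, and 676 and 243 by upper quartile. The libraries of the 2 groups did not overlap for 444 genes (3.84%), 234 higher (2.02%) and 210 lower (1.82%). Without 3x0Gy library 2 there were again 0 calls, with 715 of 11956 genes higher (5.98%) and 578 lower (4.83%) at an unadjusted p below 0.05. On counts simulated for this comparison with 11460 genes, the same test recovered 58% of genes changed 2-fold and 93% of those changed 4-fold. Of the genes called there, 5.6% were false. The simulation gave each gene the same spread in every group. In the data the common coefficient of variation between libraries was 0.29 in 3x0Gy and 0.18 in 1x0Gy at day 5. No library like 3x0Gy library 2 was simulated, so the recovered shares may overstate what the test could find here. DESeq2 called 12 genes: Cd300a, Egr1, Fam160a2, Gm10801, Gm5453, Ier2, Ighg1, Jdp2, Rnf122, Slc29a3, Tbc1d10a and Tpsb2.

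Among the genes with the smallest p were immediate early genes, which are transcribed quickly after a stimulus, without new protein synthesis. Egr1, a zinc finger factor of this class, had 955, 420, 654 and 705 CPM in 3x0Gy and 267, 342, 340 and 427 CPM in 1x0Gy. The lowest 3x0Gy value, of library 2, was just below the highest of 1x0Gy. The log2 difference was 0.99 ± 0.23 (SE, n = 4 and 4, edgeR adjusted p = 0.588), and 1.16 ± 0.19 without library 2 (adjusted p = 0.080). Ier2 had 174, 109, 145 and 140 CPM in 3x0Gy and 81.2, 79.3, 87.0 and 104 CPM in 1x0Gy, with no overlap. Its log2 difference was 0.69 ± 0.15 (edgeR adjusted p = 0.588), and 0.79 ± 0.13 without library 2 (adjusted p = 0.080). Of 17 immediate early and heat shock genes, edgeR called 0, and DESeq2 called Egr1 and Ier2. At an unadjusted p below 0.05 by edgeR, 7 of the 17 were higher in 3x0Gy (Fosb, Jun, Jund, Egr1, Egr2, Ier2, Dnajb1) against 5.09% of all genes. The list's median log2 difference was 0.41, where that of all genes was 0.02. Without library 2 the count was 8 of 17 and the median 0.35.

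The other 3 genes of smallest p among those higher in 3x0Gy were Fam160a2, at 8.59 ± 1.88 against 3.65 ± 1.32 CPM (SD, n = 4), Rnf122, a ubiquitin ligase gene, at 17.5 to 34.5 against 10.5 to 14.2 CPM, and Ptk7, a pseudokinase receptor gene, at 7.76 ± 3.76 against 3.11 ± 0.098 CPM. The 5 genes of smallest p among those lower in 3x0Gy began with Cd300a, an inhibitory receptor of myeloid cells. It had 47.5, 50.7, 53.5 and 56.3 CPM in 3x0Gy and 106, 83.3, 72.2 and 100.0 CPM in 1x0Gy. These values did not overlap, and the log2 difference was -0.79 ± 0.14 (SE, edgeR adjusted p = 0.328). Jdp2, a repressor of AP-1 target genes, had 38.3 ± 3.08 against 68.8 ± 8.06 CPM (log2 difference -0.85 ± 0.15, edgeR adjusted p = 0.328). The others were the lysosomal galactosidase Gla, at 32.9 ± 5.94 against 58.0 ± 4.99 CPM, Tbc1d10a, at 45.6 ± 4.67 against 69.2 ± 6.44 CPM, and the lipase Lipe, at 19.0 ± 0.557 against 29.4 ± 3.60 CPM.

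The mast cell genes stood out among the lists by their median. Of them edgeR called 0, and DESeq2 called Tpsb2. Of the 7 tested genes of mast cells, basophils and eosinophils, 5 were higher in 3x0Gy at an unadjusted p below 0.05 (Cpa3, Mcpt4, Tpsb2, Cma1, Gata2), against 5.09% of all genes, with a median log2 difference of 1.48. Without 3x0Gy library 2 it was 3 of 7, against 5.98% of all genes, with a median of 1.29. The tryptase Tpsb2 had 9.51, 37.0, 4.92 and 18.1 CPM in 3x0Gy and 4.27, 4.67, 4.08 and 3.74 CPM in 1x0Gy. Its log2 difference was 2.01 ± 0.51 (SE, edgeR adjusted p = 0.588), and 1.38 ± 0.42 without library 2 (adjusted p = 0.278). The 3x0Gy spread was wide, with library 3 just above the highest 1x0Gy value. Of 5 tested adipose and milk genes, 0 were called and 3 were higher at an unadjusted p below 0.05 (Csn2, Csn3, Csn1s1), with and without library 2. The casein Csn3 had 407, 273, 231 and 195 CPM in 3x0Gy and 62.9, 172, 168 and 158 CPM in 1x0Gy, without overlap.

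**Figure D5:**
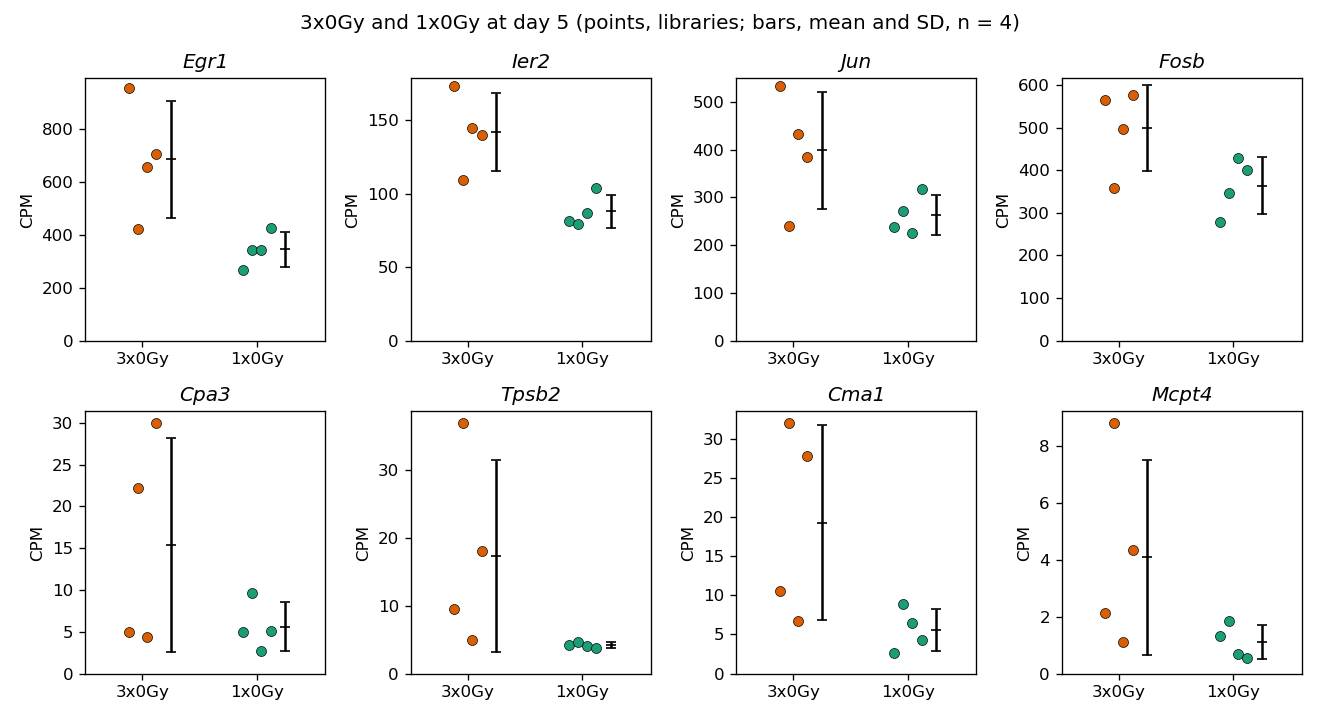
Levels in CPM of 4 immediate early genes (upper row) and 4 mast cell genes (lower row) in 3x0Gy and 1x0Gy at day 5, with axes that start at 0. Points are libraries and bars give the mean and SD of 4. The Ier2 and Tpsb2 points of the groups do not overlap, and those of the other 6 genes do.

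The counts that follow are at an unadjusted p below 0.05, where 5.09% of all genes were higher in 3x0Gy and 2.82% lower, and 5.98% and 4.83% without library 2. Several of them lie near those shares. Of 18 T cell genes, 2 were higher in 3x0Gy (Cd2, Trbc1), with a median log2 difference of 0.53, and 3 without library 2. Of 10 NK genes, 3 were higher, with a median of 0.66 (4 of 11 and 0.67 without library 2), and Ncr1 had 6.82 ± 3.55 against 2.51 ± 0.915 CPM (edgeR adjusted p = 0.588). Of 18 macrophage genes, 2 were higher and 2 lower, with a median of -0.14. Without library 2, 1 of 19 was higher and 4 lower, with a median of -0.40. Csf1r had 722 ± 362 against 710 ± 154 CPM, a log2 difference of 0.02 ± 0.28 that became -0.40 ± 0.20 without library 2. Of 20 type I interferon response genes, 3 were higher (Ifit1, Ifit3, Usp18), and 7 without library 2. These 3 genes did not overlap between the groups, as 2.02% of all genes did not with 3x0Gy higher: Ifit3 had 238, 210, 158 and 164 CPM in 3x0Gy and 87.6, 119, 140 and 127 CPM in 1x0Gy (log2 difference 0.70 ± 0.18). Of 10 class II genes, 2 were lower (H2-DMb1, H2-DMb2), and 6 without library 2, which held the highest H2-Eb1 level. Of the 15 epithelial and tumour genes, 3 were higher, and 7 without library 2, and no gene was lower with it or without it. None of these genes was called, and their lists' parts in one another were not tested.

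No library measure differed between the groups past the threshold by an exact permutation test of the difference of means (70 arrangements, two-sided, 5 measures). Total gene counts were 4240510 ± 1683610 in 3x0Gy and 6214240 ± 889099 in 1x0Gy (SD, n = 4, exact permutation p = 0.114, adjusted 0.429). The share of reads outside genes was 16.1 ± 7.29% against 16.9 ± 1.20% (exact permutation p = 0.943, adjusted 0.943). With 4 libraries a group, a p-value that misses the threshold does not show that the groups were alike.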

How the data were processed

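The 12 libraries hold RNA of CD45.2+ cells from mock-treated tumours, and the values the authors deposited are raw counts of reads for 38406 gene symbols, in a table for each library that ends in 5 lines of unassigned reads. Per the submitters' processing notes, HTSeq 0.9.1 and HISAT2 2.0.4 were used with mm10 (GRCm38), beside cutadapt 1.5 and bcl2fastq 2.20.0.422. The annotation, the strand setting and read filters are not given in the sources used here, so overlapping, antisense and near-identical genes, such as the antibody constant regions, may share reads. Total gene counts per library ran from 2652298 to 7541144, so 1 count was worth 0.133 to 0.377 CPM before scaling. The unassigned lines stayed out of totals and tests, and reads outside genes were 5.65% to 23.1% of uniquely placed reads. Libraries of a group were further apart than counting error allows (chi-square per degree of freedom 3.67 to 60.8 over pairs). At day 13 it was 3.67 for libraries 1 and 2 and 11.8 for libraries 3 and 4. Between these pairs it was 23.4 to 54.2.

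The 12 libraries were fitted together in edgeR 4.0.16 (R 4.3.3) with 3 group means, TMM scaling, filterByExpr (minimum count 10, minimum total 15) and the two-sided quasi-likelihood test, with Benjamini-Hochberg adjusted p below 0.05 over all genes tested. DESeq2 1.42.0 and limma 3.58.1 were alternatives, and the fit was tested on simulated data. Log2 CPM used a prior count of 2. Within-group deviations are log2 CPM minus the group mean, with 9 residual degrees of freedom. Pairs of 18 marker genes were tested by exact permutation within groups. Exon lengths came from GENCODE M21 (GRCm38). Lists of 31 cell types and pathways held 398 entries, of which 396 matched a symbol. Named genes were the marker panel, the most abundant per kb and by share, the 20 most and 6 least variable, the 6 most like each of 7 markers, and the 5 of smallest p in each direction of the contrast. Sets that varied together, the marker relations with library measures and the values without 3x0Gy library 2 as a separate ranking were added after the data were seen. The members and lists were chosen with earlier results of these data known.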

Additional observations from a re-analysis of the deposited data

Results flagged for a closer look

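Within each group of 4 libraries, the gap between the highest or lowest value and its neighbour was divided by the whole range, and values above Dixon's 95% critical value for 4 samples are listed. Of 228 sets examined 28 passed, and 13 of the 28 were 3x0Gy library 2. Chance flags about 1 in 20 (11 of 228), but the sets include genes picked for their spread within groups, so nothing is read from the excess.

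In 3x0Gy library 2, genes far below the other 3 libraries were Dag1, a matrix receptor gene (gap 0.996), Adap2 (0.965), the death signalling kinase Ripk1 (0.965), Il12b (0.964), Arhgap5 (0.944), Zbed6 (0.926), Pdpr (0.907), Malat1 (0.896), Vgll4 (0.888), Gatad2b (0.870) and mt-Rnr2 (0.860). Far above were H2-Eb1 (0.951) and B2m (0.840).

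In 3x0Gy library 1, Tap2, a subunit of the peptide transporter for class I display, was far below the others (gap 0.964), as were Retnla (0.906), Lyz1 (0.880) and the dendritic cell lectin Cd209a (0.844), and the ribosomal gene Rplp1 was above (0.949). In 1x0Gy at day 5, library 3 was low in Tap2 (0.849) and Mzb1 (0.864), and library 1 had the highest total gene counts (0.893).

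Of the day 13 libraries, library 3 was low in Prf1 (0.944), Spib (0.879), Il12b (0.854) and Ccr9 (0.843), and it alone had counts of Cd79a (1.00). Library 2 was low in S100a8 (0.967) and high in Ctss (0.905).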

How the results depend on the processing

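In the 3x0Gy against 1x0Gy comparison at day 5, DESeq2 called 12 genes and the fit with no filter on low counts called 2 (Gm10801 and Gm5453), where the reported fit called 0. All other fits tried, with other scalings, limma voom, 8 or 20 libraries or each day 5 library left out in turn (0 to 0), called 0. Unadjusted counts ran from 590 to 1293 over the leave-outs, with 1293 without 3x0Gy library 2. The labels do not say whether replicate numbers pair the samples. Deviations of same-numbered libraries correlated at 0.034, -0.13, -0.52 and 0.25, and those of differently numbered ones at -0.31 to 0.53. So few libraries cannot decide whether the numbers are pairs. A fit with the number as a block called 0 genes, with 465 below an unadjusted p of 0.05. With the replicate block the log2 difference of Csf1r turned from 0.024 to -0.077. It was -0.060 by limma voom and between -0.40 and 0.17 over the leave-outs. Leaving out 1 library turned Cd3e (-0.14 to 0.75) and Xcr1 (-0.16 to 0.16) as well, and the difference in reads outside genes ran from -2.61 to 2.69 percentage points. None of these was called.

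Leaving out libraries gave 0 to 1 called pairs of marker genes: Cd8a with Ncr1 without 3x0Gy library 1, and Ptprc with Siglech without 3x0Gy library 4. Of the 100 most variable genes, 36 to 98 were shared when 1 library was left out, the lowest without 3x0Gy library 2, and 45 with a mean of at least 20 CPM, where fewer genes could be chosen. The cause of the other changes was not tested. The depth, at 1 count for 0.133 to 0.377 CPM, limits low genes such as Cd79a, with 0 to 7 counts per library. With only the 8 day 5 libraries no marker pair could pass, since the smallest adjusted p possible was 0.266.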

Other observations

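Tap2 and 3 genes of other functions were low together in 2 libraries. Tap2 had 31.0 CPM in 3x0Gy library 1 and 64.9 CPM in 1x0Gy library 3 of day 5, and 149 to 378 CPM in the other 10 libraries. Snrpf, a splicing component, had 7.40 and 13.9 CPM in the same 2 libraries and 40.8 to 71.9 CPM elsewhere. Sdhd, a subunit of the respiratory chain, had 1.41 and 7.14 CPM there and 10.9 to 23.2 CPM elsewhere, and the mitochondrial ribosome gene Mrps28 0.704 and 2.55 against 5.16 to 13.7 CPM. The genes were chosen by these values, with r of 0.95 to 0.98 within the set. Their median r with the T and cytotoxic genes was -0.03. Tap2 lies at chr17:34203527-34216321, Snrpf at chr10:93583029-93589706 and Sdhd at chr9:50596357-50603812 (GRCm38, GENCODE M21), so they do not neighbour each other.

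Gm5453, a processed pseudogene at chr13:98904224-98904670 (GRCm38), had 89.4 and 90.2 CPM in 1x0Gy libraries 3 and 4 of day 5 and 0.704 to 3.28 CPM in the other 10. Counting against near-identical copies makes its level uncertain.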
